A study of Musa balbisiana with 10 samples.

Results

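Among the regions of the banana genome from which transcripts were measured in fruit pulp, 83 had a higher mean level in ethylene-treated than in control fruit on day 7 and a small difference of means on day 1. These late-diverging regions were 83 of 16821 tested, or 0.493%. A region was built by pooling all loci of at least 300 bp from the 10 deposited tables and merging those that overlapped, and its value in a library was the sum of the FPKM values (fragments scaled to transcript length and to the mapped fragments of the library) of the loci inside it. Regions were tested where every library had a value and the mean over the 10 libraries was at least 1 FPKM. A region was then kept where the group means of log2(FPKM + 1) met 3 conditions, namely a difference between ethylene-treated and control fruit of at least 1 on day 7, a difference between -0.5 and 0.5 on day 1, and a mean of at least 1 FPKM in control fruit on at least 1 of the days. The measured values therefore chose the regions, so the differences between treatments are given below as a description, and the calls of a model fitted over all regions are counted without being read as evidence.

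The libraries came from the fruit pulp of Klutuk Wulung (Musa balbisiana, BB group), a banana with only B genomes. There were 3 libraries of ethylene-treated fruit on day 7 (E7 A, B and C), 3 of control fruit on day 7 (K7 A, B and C), 2 of ethylene-treated fruit on day 1 (E1 A and C) and 2 of control fruit on day 1 (K1 A and B). Treated fruit were exposed to ethylene gas at 100 µl/L inside a glass container, and control fruit received no ethylene. E7 A, K7 A and K1 A were sequenced single-end and the other 7 libraries paired-end. The study describes the replicates as biological, without saying in the sources used here whether each was a separate fruit. All regions are given on the DH PKW v1.1 assembly, 1-based, and are numbered 1 to 83 by falling difference on day 7. The annotation came without gene names, so no function is given for any region, and the label of the tissue could not be checked against marker genes. The number of reads behind each value is not known from FPKM tables.

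Banana is a climacteric fruit, in which a burst of ethylene and of respiration accompanies ripening, and the hormone promotes its own synthesis. Exogenous ethylene starts this programme earlier than it would begin in untreated fruit, and the pulp then converts starch to sugars, loosens its cell walls and makes aroma compounds. Some genes respond within a day of exposure, others only later in ripening, and transcripts can also be lost as detached fruit age.

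In the late-diverging regions the median difference between ethylene-treated and control fruit was 1.29 on the log2(FPKM + 1) scale on day 7, with quartiles of 1.14 and 1.56, and 0.25 on day 1, with quartiles of -0.10 and 0.38. With median-of-ratios scaling the day 1 median of the 83 was 0.47, near the bound of the rule, and that on day 7 was 1.34. Over all 16821 regions the median difference was -0.11 on day 7 and -0.24 on day 1. In 56 of the 83 the small day 1 difference was above 0. Just inside the day 7 bound stood region 83 at 1.00 and region 82 at 1.01, and the nearest regions outside it were both at 0.99. On day 1 the highest differences kept were both 0.49 and the nearest left out were 0.52 and 0.53, and at the lower bound the last kept were -0.45 and -0.43 and the nearest left out were -0.501 and -0.59. The bounds therefore run through a continuous cloud of values. With the same bound on control fruit, 616 regions differed by at least 1 on both days, with median differences of 1.61 on day 7 and 2.18 on day 1. The day 7 differences chose both sets, so nothing is read from the lower day 7 median of the 83.

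**Figure D1:**
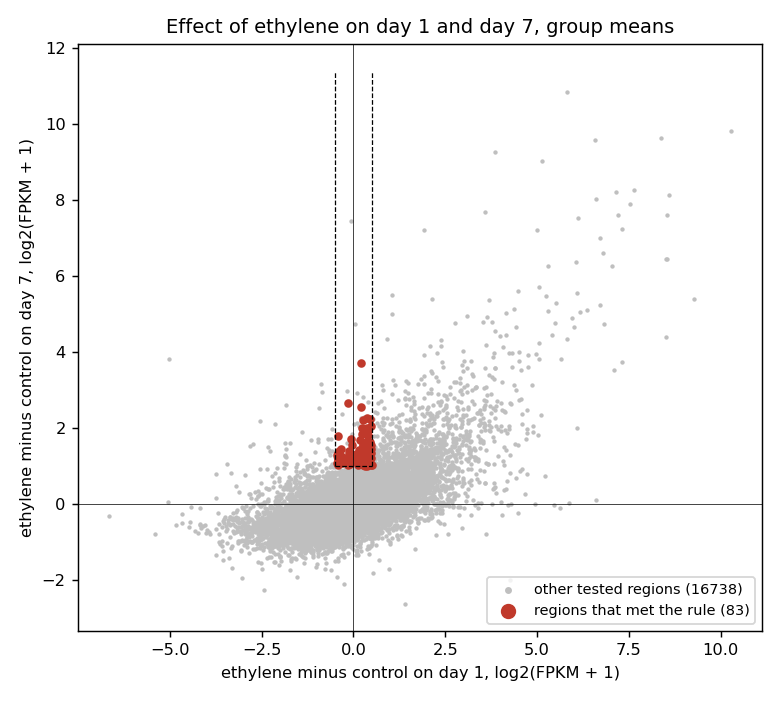
Ethylene minus control on day 1 (horizontal) and on day 7 (vertical), both as differences of group means of log2(FPKM + 1), for the 83 late-diverging regions (red) and the other tested regions (grey), with the bounds of the rule dashed. The 83 regions lie at the foot of the strip between the dashed lines, most of them under 2, and grey points high in the strip are regions left out for a control level under 1 FPKM on both days.

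Beyond these 83, another 19 regions passed both differences but had a mean under 1 FPKM in control fruit on both days. The largest of them, on chromosome 1 from 4160265 to 4161632, had 193, 183 and 178 FPKM in E7 A, B and C, against 0, 0.149 and 0.0322 FPKM in K7 A, B and C. On day 1 it had 0.0426 and 0 FPKM in E1 A and C, against 0 and 0.136 FPKM in K1 A and B. Its level was therefore near 0 in 7 of the 10 libraries and high in all 3 of treated fruit on day 7. The rule places such regions outside the set described here, which holds regions with a measurable control level.

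The group levels show how the gap arose. The median region had a mean of 12.2 FPKM in treated fruit and 3.73 FPKM in control fruit on day 7, against 7.92 FPKM in treated fruit and 6.65 FPKM in control fruit on day 1. The mean was under 1 FPKM for 0 regions in E7, 14 in K7, 2 in E1 and 1 in K1, and the 2 with a library listed at 0 (regions 14 and 77) had it in K7 A. By library, the median over the 83 regions was 15, 10.8 and 11.3 FPKM in E7 A, B and C, and 4.12, 4.04 and 3.32 FPKM in K7 A, B and C. On day 1 it was 7.09 and 7.58 FPKM in E1 A and C, and 6.96 and 6.21 FPKM in K1 A and B. All libraries of a day 7 group stood on the same side of every day 1 library, the treated ones above and the control ones below. The median over all tested regions stayed between 7.48 and 9.65 FPKM in the 10 libraries. The 83 regions held 0.457%, 0.594% and 0.423% of all region FPKM in E7 A, B and C, against 0.178%, 0.163% and 0.154% in K7 A, B and C. On day 1 they held 0.259% and 0.271% in E1 A and C, against 0.306% and 0.314% in K1 A and B. Without region 3, described below, the share in E7 B was 0.404%. In pulp measured in bulk, fewer cells of a type and less RNA per cell cannot be told apart.

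**Figure D2:**
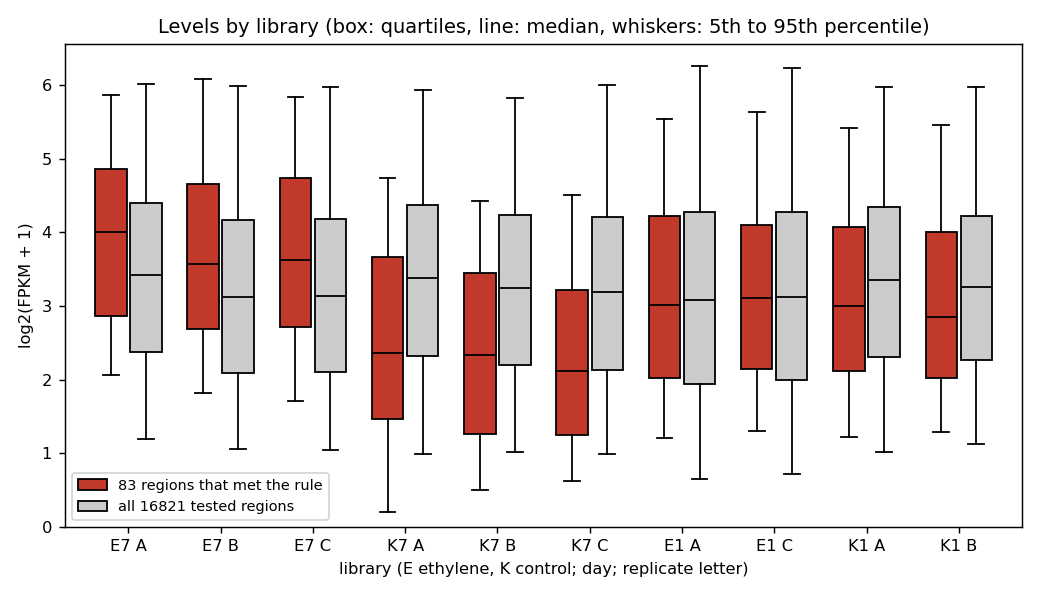
Level, as log2(FPKM + 1), of the 83 late-diverging regions (red) and of all 16821 tested regions (grey) in each of the 10 libraries, with boxes for the quartiles, lines for the medians and whiskers at the 5th and 95th percentiles. By their medians the red boxes are above the grey in the 3 E7 libraries, below them in the 3 K7 libraries and nearly level with them in E1 A and C. In K1 A and B the red medians (6.96 and 6.21 FPKM) are below the grey (9.22 and 8.54 FPKM).

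The label under which these regions were selected calls them induced on day 7, and the levels fit that name for only a part of them. In treated fruit the median difference between day 7 and day 1 was 0.56 (quartiles 0.23 and 0.96). In control fruit its median was -0.59 (quartiles -1.04 and -0.26). Over all tested regions these medians were 0.11 and -0.02. With a bound of 0.5 on the log2(FPKM + 1) scale, 32 of the 83 were higher on day 7 in treated fruit alone, 34 were lower on day 7 in control fruit alone, 13 showed both and 4 showed neither. Among all tested regions 23.7% were higher in treated fruit alone, 8.72% were lower in control fruit alone, 3.13% showed both and 64.4% showed neither. The gain in treated fruit was larger than the loss in control fruit in 41 of the 83. Because the rule fixes the gap between the treatments on each day, a region with a small gain in treated fruit has to have a loss in control fruit, so the shares describe the members and do not set them apart from chance. Across the 83 regions the changes in treated and in control fruit had a Pearson r of 0.695, against 0.0621 across all tested regions, which the rule also imposes in part. The 2 changes share no library with each other, but each shares libraries with the contrasts used in the rule.

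**Figure D3:**
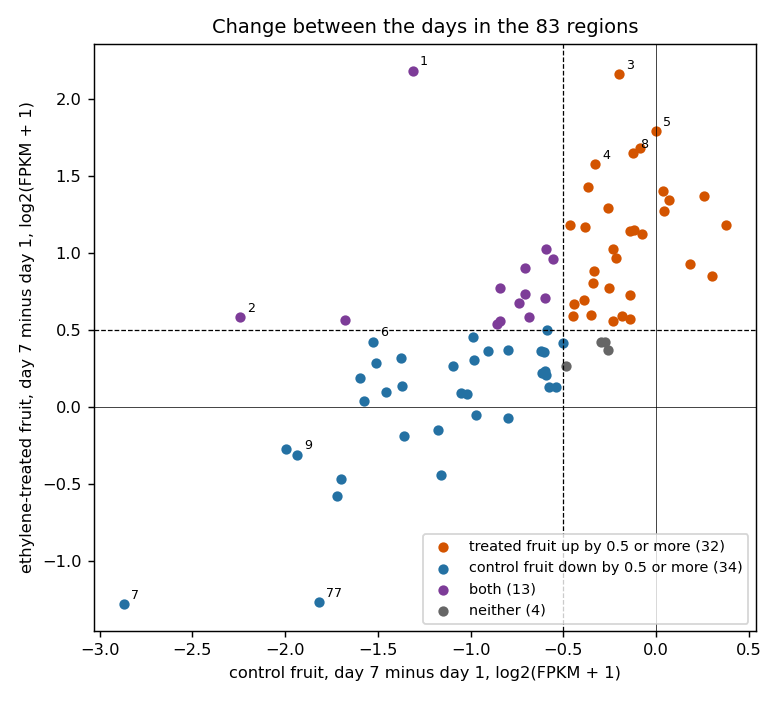
Day 7 minus day 1 in control fruit (horizontal) and in treated fruit (vertical) for the 83 regions, both on the log2(FPKM + 1) scale, with dashed lines at the bounds of 0.5 and numbers for regions named in the text. Points lie along a rising band between regions that were higher in treated fruit (orange, 32) and regions that were lower in control fruit (blue, 34), with regions 7 and 77 lower on day 7 in both kinds of fruit.

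By limma, fitted over all 16821 regions with Benjamini-Hochberg adjustment, 71 of the 83 were called higher and 0 lower in treated than in control fruit on day 7 at an adjusted p of 0.05, where 8.75% of all regions were called higher and 4.71% lower, 13.5% together. On day 1 the count was 0 of 83 in either direction, with 3 at an unadjusted p under 0.05, where 17.1% of all regions were called higher and 24.8% lower, 41.9% together. That 0 depended on the processing. The count was 7 under median-of-ratios scaling (7081 over all regions) and 6 under quantile normalization (6470). With length-weighted FPKM, which builds a region's value in another way, it was 13 (8332). Paired-end libraries alone, which leave 1 library in K1, also gave calls. The difference between the effects on day 7 and day 1 was called higher in 30 and lower in 0, against 8.31% and 5.9% of all regions, 14.2% together. That count of 30 was 24 to 31 with 1 day 7 library left out, where 1760 to 2355 of all regions were called, against 2391. Leaving out E1 A or E1 C leaves 1 library in that group. Calls were then fewer among the 83 and over all regions. The median difference between the effects over the 83 was then 1.21 and 1.30, against 1.23. These 3 contrasts were used by the rule, so nothing is read from the counts. The libraries of E7 all lay above those of K7 in 79 of the 83, against 15.6% of all regions. The 4 with overlapping libraries (regions 3, 58, 63 and 65) were among the 12 not called on day 7.

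Between the days, 21 of the 83 were called higher on day 7 in treated fruit, against 14.3% of all regions, and 2 were called lower, against 11%. Both directions together made 23 calls, against 25.3% of all regions. Without E1 A or without E1 C, which leaves 1 library in that group, calls were fewer among the 83 and over all regions. In control fruit 13 were called lower on day 7, against 1.05% of all regions, and 0 were called higher (0 also at an unadjusted p under 0.05), against 0.262%, or 1.31% together. Leaving out 1 day 7 library at a time gave 8 to 12 calls in control fruit, with 8 without K7 A or without K7 C. Over all regions the calls then fell from 220 to between 111 and 191. Leaving out K1 B, which leaves 1 library in K1, gave fewer still among the 83. A fit of the 2 control groups alone gave 1 call, against 3 over all regions. The libraries themselves did not overlap in 48 regions for treated fruit, with day 7 above day 1, and in 42 for control fruit, with day 7 below day 1. Among all regions those shares were 33.4% and 14.4%. The calls fell on different regions, since 21 were called higher in treated fruit and not called in control fruit, 11 were called lower in control fruit and not called in treated fruit, 2 were called lower in both, 0 were called in opposite directions and 49 were called in neither. A call in treated fruit without one in control fruit does not by itself show that the changes differ.

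Regions 4, 5, 8 and 10 were higher on day 7 in treated fruit, while their control fruit stayed within 0.5 of its day 1 level on the log2(FPKM + 1) scale. Region 5 holds the identifier Mba11_g04830.v1.1 and spans 4346102 to 4349761 on chromosome 11. It had 122, 121 and 117 FPKM in E7 A, B and C, against 25.7, 20.8 and 28.3 FPKM in K7 A, B and C. On day 1 it had 33.2 and 34.6 FPKM in E1 A and C, against 23.8 and 25.8 FPKM in K1 A and B. The treated libraries of day 7 stood apart from all 7 others. Among those, both E1 libraries lay above every control library. The day 1 difference was 0.44, with a limma p of 0.033 unadjusted and 0.071 adjusted. On the log2(FPKM + 1) scale it rose in treated fruit by 1.79 ± 0.16 (SE) between the days and differed by -0.00 ± 0.16 in control fruit. It has 1 row in every table, and the lowest lower bound that Cufflinks gave for E7 was 112.9 FPKM, against a highest upper bound of 30.1 FPKM for K7.

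Region 4, on chromosome 1 from 15082747 to 15132830, is a long region in which the tables list 4 identifiers. Its summed level was 182, 161 and 140 FPKM in E7 A, B and C, against 30.9, 26.8 and 41.5 FPKM in K7 A, B and C. On day 1 it was 45.7 and 61.4 FPKM in E1 A and C, against 41.9 and 40.3 FPKM in K1 A and B. Every E7 library exceeded the highest other library, and the change between the days was 1.58 ± 0.22 (SE) in treated fruit and -0.33 ± 0.22 in control fruit. Which of the genes inside the merged span carried the change was not separated.

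Region 8, on chromosome 11 from 19434681 to 19438394, showed the same order at a lower level. It had 48.5, 37.6 and 37.3 FPKM in E7 A, B and C, against 9.70, 7.80 and 10.9 FPKM in K7 A, B and C. Its day 1 libraries had 11.9 and 12.9 FPKM in E1 and 12 and 8.83 FPKM in K1, so the control libraries of day 7 overlapped those of day 1. Region 10, on chromosome 5 from 34275264 to 34279266, had 16.0, 12.5 and 10.6 FPKM in E7, against 2.85, 1.91 and 3.08 FPKM in K7. Its treated fruit had 5.33 and 5.0 FPKM on day 1, above the 4.05 and 3.29 FPKM of control fruit, so it was slightly separated already on day 1. This was not particular to region 10. Both E1 libraries also lay above both K1 libraries in regions 4, 5, 6, 7, 9, 12, 18 and 77. In the other members given here with their day 1 libraries, E1 and K1 overlapped. The change in treated fruit was 1.65 ± 0.21 (SE) for region 8 and 1.17 ± 0.24 for region 10, both called.

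Of the other regions called higher on day 7 in treated fruit, regions 29 and 34 were picked after their values were seen, as examples of a high and of a low starting level. Region 29, on chromosome 11 from 16800723 to 16804424, had 55.3, 66.6 and 58.0 FPKM in E7, against 20.8, 19.3 and 25.3 FPKM in K7, 30.1 and 23.2 FPKM in E1 and 23.7 and 23.5 FPKM in K1. Region 34, on chromosome 4 from 28994796 to 29010405, had 3.73, 3.68 and 3.89 FPKM in E7, against 0.651, 0.457 and 1.73 FPKM in K7, 0.424 and 0.554 FPKM in E1 and 0.542 and 1.56 FPKM in K1. In region 34 the E7 libraries agreed closely while the other groups lay near or under 1 FPKM. The changes called higher in treated fruit ranged over the 21 regions between 0.85 and 2.18 on the log2(FPKM + 1) scale.

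A second kind of region was high on day 1 in both treatments, stayed high in treated fruit and was low only in control fruit on day 7. Region 6, on chromosome 11 from 27150460 to 27152870, had the second highest treated level of the 83. It had 244, 206 and 210 FPKM in E7 A, B and C, against 56.0, 38.6 and 46.2 FPKM in K7 A, B and C. On day 1 it had 164 and 163 FPKM in E1 A and C, against 132 and 139 FPKM in K1 A and B. The change between the days was -1.52 ± 0.18 (SE) in control fruit and 0.42 ± 0.18 in treated fruit, and only the change in control fruit was called.

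Region 18, which holds Mba03_g04980.v1.1 on chromosome 3 from 3552098 to 3554104, behaved alike. It had 59.3, 65.1 and 56.1 FPKM in E7, against 16.2, 19.4 and 21.3 FPKM in K7, and 86.0 and 80.9 FPKM in E1, against 56.2 and 71.8 FPKM in K1. Control fruit fell by 1.70 on the log2(FPKM + 1) scale (SE 0.17), and treated fruit differed by -0.47 ± 0.17 without a call. In this region the day 7 libraries of treated fruit lay within or below the range of the day 1 libraries, so the gap on day 7 came with no gain in treated fruit.

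In regions 9 and 11, too, K7 was the lowest group. Region 9, on chromosome 9 from 9152351 to 9154357, had 38.2, 40.9 and 36.6 FPKM in E7, against 6.66, 11.9 and 8.69 FPKM in K7, 47.5 and 48.6 FPKM in E1 and 32.6 and 41.5 FPKM in K1. Region 11, on chromosome 4 from 23835195 to 23838668, had 22, 22.6 and 33.4 FPKM in E7, against 4.77, 7.95 and 6.84 FPKM in K7, 22.9 and 27.0 FPKM in E1 and 17 and 25.8 FPKM in K1. In both, the 3 control libraries of day 7 lay below all 7 others. The change in control fruit was -1.94 ± 0.22 (SE) for region 9 and -1.57 ± 0.27 for region 11.

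Regions 7 and 77 were lower on day 7 in both kinds of fruit and more so in control fruit. Region 7, on chromosome 5 from 9250596 to 9252545, had 3.44, 5.93 and 5.47 FPKM in E7 A, B and C, against 0.511, 0.383 and 0.291 FPKM in K7 A, B and C. On day 1 it had 14.5 and 12 FPKM in E1, against 8.24 and 10.2 FPKM in K1. Treated fruit fell by 1.28 (SE 0.24) and control fruit fell by 2.87 (SE 0.24) between the days on the log2(FPKM + 1) scale, so the word induced is not apt for it. Region 77, picked after its values were seen, holds Mba09_g12510.v1.1 on chromosome 9 from 9138594 to 9142243. It had 2.05, 0.988 and 0.857 FPKM in E7, against 0.232 and 0.0687 FPKM in K7 B and C and a value listed at 0 in K7 A. On day 1 it had 4.21 and 4.6 FPKM in E1, against 2.90 and 2.83 FPKM in K1. The changes were -1.27 ± 0.24 (SE) in treated and -1.82 ± 0.24 in control fruit.

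In 13 regions both changes contributed, with medians of 0.71 in treated fruit and -0.74 in control fruit. Region 1, which had the largest day 7 difference of the 83 at 3.71, holds Mba10_g00760.v1.1 on chromosome 10 from 1274158 to 1278566. It had 22.9, 17.3 and 18.5 FPKM in E7 A, B and C, against 0.0702, 0.717 and 1.08 FPKM in K7 A, B and C. On day 1 it had 3.87 and 3.15 FPKM in E1 A and C, against 2.50 and 3.31 FPKM in K1 A and B. The day 1 libraries overlapped between the treatments, and on day 7 the lowest treated library stood well above the highest control library. Treated fruit rose by 2.18 ± 0.29 (SE) between the days, and the change in control fruit was -1.31 ± 0.29 without a call.

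Region 2, on chromosome 9 from 36785660 to 36788474, had 37.2, 42.2 and 43.1 FPKM in E7, against 2.09, 9.93 and 7.44 FPKM in K7, 20.5 and 35.2 FPKM in E1 and 27.1 and 33.7 FPKM in K1. Its change in control fruit was -2.25 ± 0.45 (SE) and called, and its change in treated fruit was 0.58 ± 0.45 and not called. Region 12, on chromosome 7 from 100126 to 114806, had 95.6, 100.2 and 87.3 FPKM in E7, against 30.8, 32.3 and 17.9 FPKM in K7, 54.5 and 63 FPKM in E1 and 49.5 and 39.7 FPKM in K1. The group means of region 12 were ordered with E7 highest, E1 next, K1 below it and K7 lowest. Its day 1 difference was 0.40, with both E1 libraries above both K1 libraries. Region 13, on chromosome 9 from 31200624 to 31203572, had 20.7, 22.8 and 22.7 FPKM in E7, against 2.32, 9.46 and 7.26 FPKM in K7, 14 and 15.3 FPKM in E1 and 14 and 28.7 FPKM in K1. There K1 B exceeded every treated library, so the control value of day 1 rested on a wide pair.

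**Figure D4:**
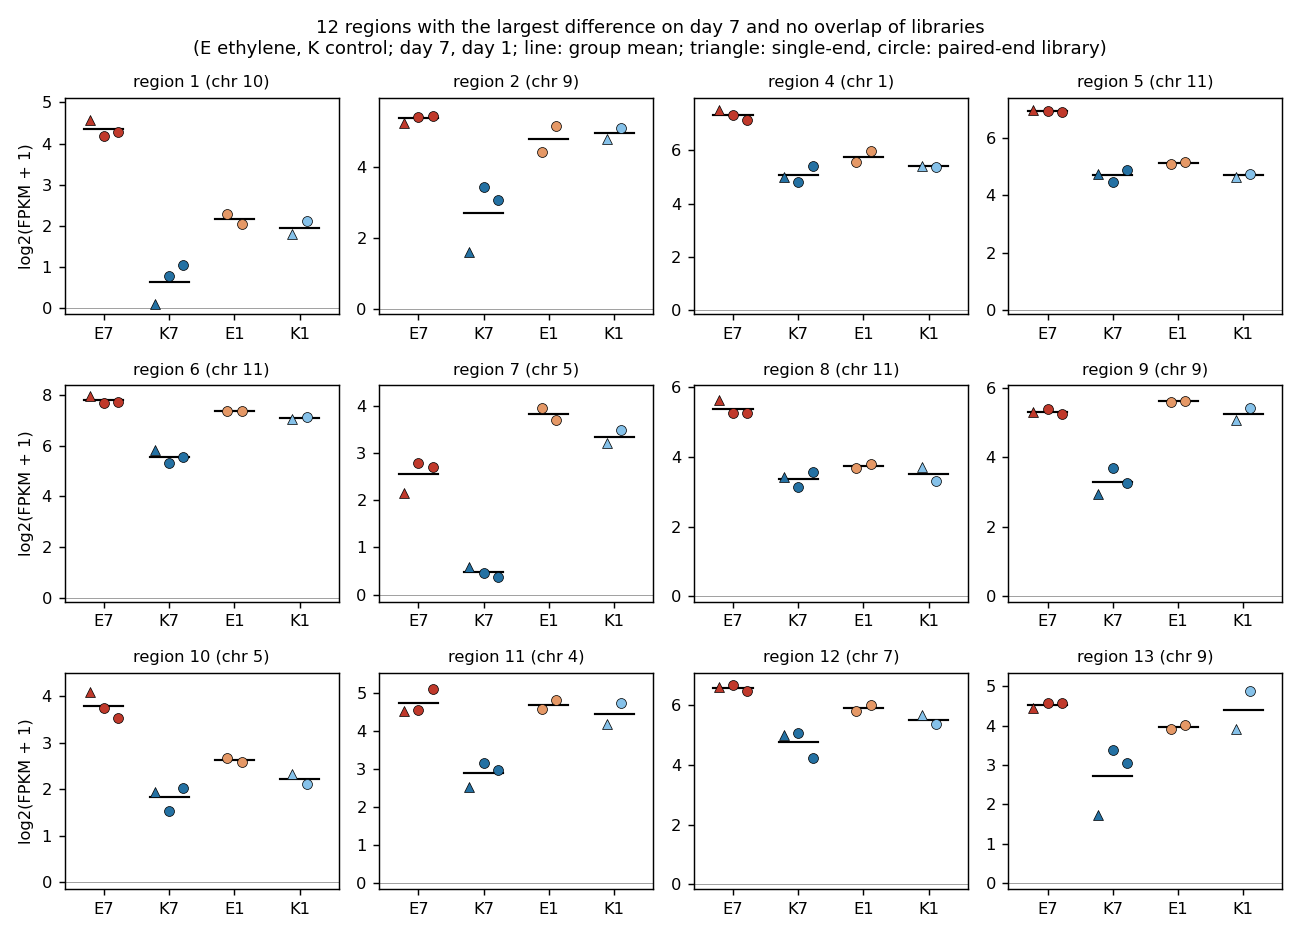
Values as log2(FPKM + 1) of each library in the 12 regions with the largest day 7 difference whose day 7 libraries did not overlap, by group, with triangles for single-end and circles for paired-end libraries and lines for group means. In regions 4, 5, 8 and 10 the E7 points stand above all other groups, and in regions 6, 7, 9 and 11 the K7 points stand below all other groups. Both hold in regions 1, 2, 6, 10 and 12.

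The 4 regions in which neither change reached 0.5 had smaller day 7 differences, between 1.00 and 1.15. Region 68, on chromosome 5 from 40833557 to 40837419, had 31.4, 28.9 and 29.5 FPKM in E7, against 11.8, 12 and 17.5 FPKM in K7, 20.7 and 23.7 FPKM in E1 and 22.1 and 12.5 FPKM in K1. Region 83, on chromosome 10 from 36126135 to 36131567, had 57.5, 43.9 and 43.7 FPKM in E7, against 29.2, 20.4 and 21.7 FPKM in K7, 37.9 and 35.9 FPKM in E1 and 37.3 and 21.5 FPKM in K1. In both, 1 of the K1 libraries was as low as K7 and the other was near E1.

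Compared by group means over all 83, E7 was the highest group in 69, E1 in 9 and K1 in 5. K7 was the lowest group in 74, K1 in 5 and E1 in 4. E7 was above E1 in 72 and K7 was below K1 in 76. A lowest level in K7 was about as frequent among the 83 as a highest level in E7. The rule places E7 above K7 in every member, so these orders are in part fixed by it and nothing is read from them. Over all 16821 tested regions E7 was below E1 in 7211 and K7 was below K1 in 8813.

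The single-end libraries could be set against the rest on day 7, since each treatment had 1 of them. Within the A libraries, both single-end, the median difference over the 83 was 1.47 (range -0.40 to 4.48), within B it was 1.14 (0.07 to 7.96) and within C it was 1.39 (-0.37 to 3.74). Over all tested regions these medians were -0.03, -0.13 and -0.12. The difference was above 0 in 82 regions within A, in 83 within B and in 82 within C, and in 81 within all of them, while 39 reached 1 within all of them. The same libraries chose the members, so these signs are largely fixed by the rule and are no separate check. The letters were not taken to pair the libraries. On day 1 the layout was unbalanced, because K1 A is single-end and both E1 libraries are paired-end. Without the single-end libraries the median day 7 difference of the 83 was 1.31, and the median changes between the days were 0.42 in treated and -0.53 in control fruit, with K1 then resting on 1 library. Of the 83, 18 stayed within 0.5 of 0 in all 4 pairs of an E1 with a K1 library, so in the others at least 1 such pair lay further apart than the group means.

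**Figure D5:**
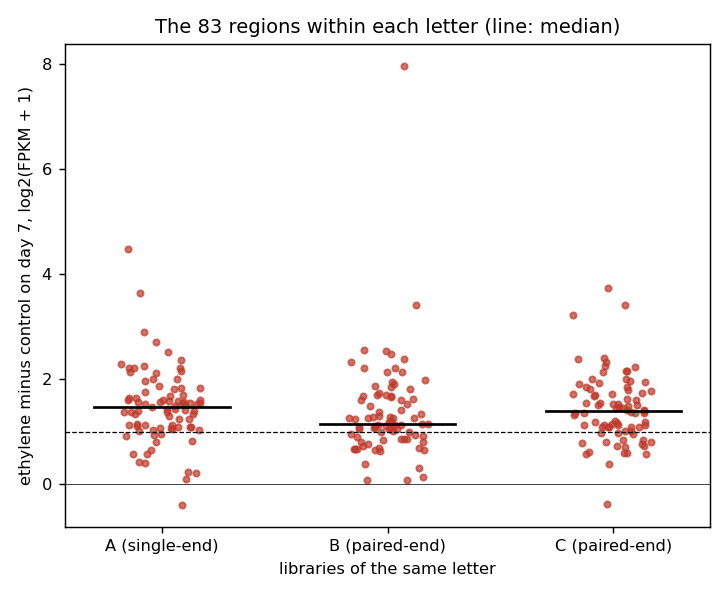
Difference between the ethylene-treated and the control library of the same letter on day 7, on the log2(FPKM + 1) scale, for each of the 83 regions, with lines at the medians and a dashed line at the day 7 bound of 1. The medians are 1.47, 1.14 and 1.39 within A, B and C, and the point near 8 within B is region 3.

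Several members rested on 1 library or 1 row of a table. Region 3, on chromosome 7 from 15738669 to 15744571, had 15.1, 838 and 11.8 FPKM in E7 A, B and C, against 14.1, 2.36 and 15.6 FPKM in K7 A, B and C. Its day 1 levels were 10.2 and 12.9 FPKM in E1, against 15.3 and 6.21 FPKM in K1. In E7 B 1 assembled locus of 551 bp, from 15743890 to 15744440, held 825 FPKM and the other loci of the region held 12.7 FPKM. The libraries overlapped, the day 7 difference was 2.56 ± 1.36 (SE) and was called neither here nor under any of the 23 alternative fits, and its mean of 288 ± 476 FPKM (SD, n = 3) in E7 does not describe the other libraries.

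Regions 40, 63 and 17 were examined after their values were seen, for their wide spread. Region 40, on chromosome 5 from 38046177 to 38053745, had 19.2, 17.3 and 20.2 FPKM in E7, against 14.2, 16.5 and 0.986 FPKM in K7, so its gap rested on K7 C. All of the level in K7 C lay in a locus from 38051564 to 38052997. In every other library the highest locus began between 38046177 and 38046199 and held 10.6 to 18.1 FPKM. Region 63, on chromosome 10 from 36259909 to 36291290, had 38.2, 10.4 and 36.7 FPKM in E7, against 50.7, 9.89 and 1.82 FPKM in K7, with overlap of the groups. Region 17, on chromosome 6 from 33235600 to 33245501, had 20.0, 6.24 and 3.30 FPKM in E7, against 1.80, 2.92 and 1.01 FPKM in K7, a narrow gap between the lowest treated and the highest control library. None of these was called on day 7, although region 17 was called under 5 of the 23 alternative fits, and how the assembly of loci in each library contributed was not tested.

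In length, level and annotation, which the rule did not set bounds on apart from the minimum level, the 83 were described beside all tested regions. Their median length was 5903 bp, with quartiles of 3562 and 10787 bp, against 6790 bp, with quartiles of 4103 and 11582 bp, over all tested regions. Their median mean level was 7.90 FPKM, against 9.04 FPKM. The tables listed an annotated identifier in 36 of the 83 (43.4%), against 34.5% of all tested regions, and the other 47 held only loci that Cufflinks assembled. Regions with an identifier can hold such loci too, as regions 4 and 40 did. In 24 (28.9%) the region was 1 row in every table, against 27.3% of all, so that for those no values were summed. In 21 of these 24 the lowest Cufflinks lower bound in E7 lay above the highest upper bound in K7, against 13.4% of the 4596 such regions among all tested, and since the rule used the day 7 gap nothing is read from this count. The exceptions were regions 44, 56 and 58. No difference of this kind was tested.

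The 83 lay on all 11 chromosomes, with 13 of 1686 tested regions on chromosome 1, 11 of 1490 on chromosome 5, 10 of 1873 on chromosome 6 and 9 of 1218 on chromosome 11. Chromosome 3 held the fewest, 2 of 1144, and unplaced scaffolds held 1 of 604. The only neighbours with no tested region between them were regions 77 and 9 on chromosome 9, separated by 10107 bp. Both were lower on day 7 in control fruit and both were called there. In region 9 treated fruit differed by -0.31 ± 0.22 (SE) between the days, and in region 77 by -1.27 ± 0.24. The next closest pair, regions 60 and 38, lay 21980 bp apart with 3 tested regions between them.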

How the data were processed

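RNA of fruit pulp was sequenced by the authors, who trimmed the reads (Trimmomatic 0.38.0 in the submitters' processing notes), aligned them to assembly DH PKW v1.1 using Tophat2 2.1.0, then ran Cufflinks, given as version 2.2.1 in the methods and 2.2.2.1 in the processing notes. The authors deposited FPKM values with lower and upper bounds, 1 table per library; no counts were used. How Cufflinks treated strand and multi-mapping reads is not given in the sources used here.

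Loci of at least 300 bp were merged into 30802 regions, of which 27929 had a value in every library and 16821 a mean FPKM of at least 1. A sum over loci mixes lengths and can join genes. log2(FPKM + 1) was fitted with limma 3.58.1 in R 4.3.3 (4 group means, variance trend, two-sided, Benjamini-Hochberg within each contrast). Fold changes on this scale understate those of low regions. The code was tested on simulated data.

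The members and lists were chosen with earlier results of these data known. Regions named were the 12 with the largest day 7 difference among those with libraries that did not overlap, the 5 with the highest mean in E7, the 2 with the highest mean in each class of change, and those at the bounds; others are marked as picked after their values were seen. Gene lists and promoter motifs planned for the case of named genes or given sequences were not analysed here. Alternatives are listed in the closing section.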

Additional observations from a re-analysis of the deposited data

Results flagged for a closer look

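The interaction term of the limma fit, the ethylene effect on day 7 minus that on day 1, was called higher in 30 of the 83 late-diverging regions. The bound was an adjusted p of 0.05. Over all regions 8.31% were called higher and 5.9% lower, 14.2% together. The bounds of the rule already place the day 7 effect above the day 1 effect in all 83. The median effect over the 83 was 1.29 on day 7 and 0.25 on day 1 on the log2(FPKM + 1) scale. The rule used both effects to choose the regions, so this count describes them and is no separate evidence. Leaving out 1 day 7 library at a time gave 24 to 31 calls, against 1760 to 2355 over all regions. Without E1 A or E1 C, which leaves 1 library in that group, calls were fewer among the 83 and over all regions. Groups of 2 or 3 libraries were too small to be screened for single outlying libraries.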

How the results depend on the processing

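Applying the rule again gave 38 regions with a pseudocount of 5 (24 of them among the 83), 119 with a pseudocount of 0.1 (66), 97 with paired-end libraries alone (50), 53 with a minimum mean of 5 FPKM, 24 among regions with 1 row in every library, and 75 (without E7 A) to 103 (without E7 C) with 1 library left out, where 56 to 76 of the 83 were kept. Median-of-ratios scaling gave 63 regions, 45 of them among the 83, and length-weighted FPKM, added after seeing the data, gave 68 with 46 of them. Over 18 such settings 3 regions (8, 20 and 29) were always kept. Median-of-ratios scaling moved the day 1 median of all regions to -0.03, against -0.24 as deposited, and that of the 83 to 0.47, against 0.25.

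A minimum mean of 5 FPKM kept 53 of the 83 in the test, with 44 of them called on day 7 (1722 of all 11562 regions then tested). In treated fruit between the days 12 were called (3142 of all), and for the difference between the effects 19 (1807 of all). On day 1, 0 were called as reported, where 7050 of all regions were called. The count was 1 with a pseudocount of 0.1 (7053 over all regions), 2 without a filter (7362 of 27929) and 2 with layout as a term (7212). It was 7 with median-of-ratios scaling (7081), 6 with quantile normalization (6470) and 13 with length-weighted FPKM (8332). With 1 day 7 library left out it was 0 or 1 (6650 to 7273). Paired-end libraries alone, or leaving out either K1 library, leave 1 library in K1 and also gave calls. In control fruit between the days, 13 as reported (220 over all regions) became 8 without a filter (314 of 27929) and 1 with the 2 groups alone (3). With 1 day 7 library left out the count was 8 to 12 (111 to 191). Paired-end libraries alone and the fit without K1 B, which leave 1 library in K1, gave fewer than reported. In treated fruit, leaving out 1 day 7 library gave 22 to 25 (3350 to 4383 over all regions). Leaving out either E1 library gave fewer among the 83 and over all regions. The difference between the effects was called in 19 with quantile normalization (2044 over all regions) and in 24 to 31 with 1 day 7 library left out (1760 to 2355). Leaving out either E1 library gave fewer among the 83 and over all regions. The causes were not tested.

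The labels' letters were checked for pairing by correlating deviations from group means between treated and control libraries of day 7. Same-letter values were 0.332 for A, 0.0310 for B and 0.118 for C. Values of unlike letters ran from -0.258 (E7 A with K7 C) to 0.197 (E7 B with K7 C), the latter above same-letter B and C. Both A libraries are single-end, so letter and layout cannot be told apart there. The letters were not taken to pair the libraries. With a replicate block by letter, 70 were called on day 7 and 0 on day 1. Between the days 27 were called in treated and 11 in control fruit, and 27 for the difference between the effects. By number these counts were 74, 0, 30, 10 and 32. Over all regions they were 2238, 6629, 4365, 133 and 2136 by letter, and 2344, 7353, 4339, 116 and 2458 by number. Of the 83, 82 stayed above 0 on day 7 in every alternative fit that tested them, and region 64 was at -0.18 with length-weighted FPKM.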
